A study of Mus musculus with 4 samples.

Results

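The transcripts described here belong to the transcriptional loop at the centre of the circadian clock. They are the activators Arntl (BMAL1), Clock and Npas2, the nuclear receptors Nr1d1 (REV-ERB alpha), Nr1d2 (REV-ERB beta) and Rora, and the repressors Bhlhe40 (DEC1) and Bhlhe41 (DEC2). These 8 genes, of 18193 measured, were read by 23 of the 45101 probe sets on the array. They were selected on their clock role after the knock-in minus wild-type differences of clock genes in these same arrays had been seen. Those differences are therefore given as a description, with no test in support of them. Every probe set that the platform annotation assigns to a single one of the 8 symbols was taken. The main value of a gene is that of its brightest probe set, by the mean of the arrays.

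Gene expression was measured in mouse heart on Affymetrix arrays. The knock-in group held 2 heart samples with the GSK-3beta S9A genotype, in which serine 9 of the kinase is replaced by alanine, from animals of 3.5 months, and the control group 2 wildtype heart samples from animals of 3.6 months. All carried the strain label C57B6 and were taken at baseline. GSK-3beta is a constitutively active kinase that is inhibited by phosphorylation at that serine, and the replacement removes that site. Nothing in the labels ties each sample to an animal of its own, so the SDs below may be technical. The labels used here give no hour of collection.

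In the mammalian clock, BMAL1 pairs with CLOCK or its close relative NPAS2 and activates genes through E-box sequences. Among the activated genes are those of the REV-ERBs and DEC proteins. The REV-ERBs repress, and the RORs activate, Arntl and other genes through a shared DNA element, so that Arntl peaks at the opposite time of day from Nr1d1 and Nr1d2. The DEC proteins compete with BMAL1 complexes at E-boxes. In heart this loop times many metabolic genes. GSK-3beta is known as a kinase that phosphorylates several clock proteins, REV-ERB alpha among them.

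Promoter sequences are shown first because these genes regulate each other through short DNA elements. RefSeq windows of build GRCm38.p6 with 250 bases before and 50 after each transcription start were searched on both strands, and 7 of the 8 genes, with 10 windows, were in that table. Bhlhe40 was the gene without an entry. The full ROR response element, an A/T-rich stretch followed by AGGTCA, was searched with fixed letters. These were A or T, then A, then A or T, then any base, then TAGGTCA. Among these genes that element was found in Arntl alone. It begins 27 bases into the transcript from the start site at chr7:113207511 and is present in 0.18% of all 32851 promoter windows. Its AGGTCA core, searched by itself, was also found in Nr1d2 and Clock. That core is in 3 of the 10 windows and in 16.3% of all windows. The E-box CACGTG was in Bhlhe41, 1 of the 10 windows, against 7.15% of all windows. No match to the D-box letters TTATGNAA or TTANGTAA, which 4.71% of all windows hold, lay in the windows of these genes. The 4 sites are given below as 30 bases each, 5′ to 3′, with the matched element in capitals. They lie at chr7:113207528-113207557 (plus strand) for Arntl, chr14:18239166-18239195 (minus strand) for Nr1d2, chr5:76303604-76303633 (plus strand, opposite to the gene) for Clock and chr6:145865556-145865585 (minus strand) for Bhlhe41.
Arntl: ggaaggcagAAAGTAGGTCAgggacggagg
Nr1d2: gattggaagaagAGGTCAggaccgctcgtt
Clock: ctgtcatctgtcAGGTCAgaggccaaagct
Bhlhe41: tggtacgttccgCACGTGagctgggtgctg

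For Arntl and Nr1d2, which had the lowest and the highest differences of the 8 genes, the 250 bases before a start site are given as wider context. The Arntl window ends before the more upstream of its 2 listed starts and lies at chr7:113207215-113207464 on the plus strand. The Nr1d2 window is at chr14:18239107-18239356 on the minus strand. Capitals mark the AGGTCA core, which the Arntl stretch does not hold on either strand.
Arntl: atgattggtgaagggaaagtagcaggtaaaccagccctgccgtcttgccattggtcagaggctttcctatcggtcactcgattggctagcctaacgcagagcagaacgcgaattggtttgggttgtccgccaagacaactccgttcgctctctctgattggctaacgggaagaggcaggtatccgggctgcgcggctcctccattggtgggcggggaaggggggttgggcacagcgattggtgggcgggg
Nr1d2: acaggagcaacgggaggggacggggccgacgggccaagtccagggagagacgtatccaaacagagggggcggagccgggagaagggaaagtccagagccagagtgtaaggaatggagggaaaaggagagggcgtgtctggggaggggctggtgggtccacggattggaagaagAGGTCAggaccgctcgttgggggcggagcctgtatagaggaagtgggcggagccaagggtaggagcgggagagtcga

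The activators were lower in knock-in hearts and the REV-ERBs and Bhlhe40 higher. In their main probe sets, 3 of the 8 genes (Arntl, Clock and Npas2) had knock-in values that were both below the wild-type pair, and 4 (Nr1d1, Nr1d2, Rora and Bhlhe40) had them above it. Only Bhlhe41 overlapped between groups. Over all genes the arrays stood apart downward in 17.0% and upward in 19.6%. Differences of the 8 genes ran from -1.35 to 0.71 on the log2 scale with a median of 0.19, against a median of 0.00024 over all genes. Their median absolute difference was 0.56 and that of all genes 0.0918. None of the 8 was called by limma with Benjamini-Hochberg adjustment over all genes, where 0.00550% of genes (1 gene) were called, and 5 had an unadjusted limma p under 0.05, as did 7.39% of all genes. Nothing is read from these counts, because the genes were chosen on this contrast.

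**Figure D1:**
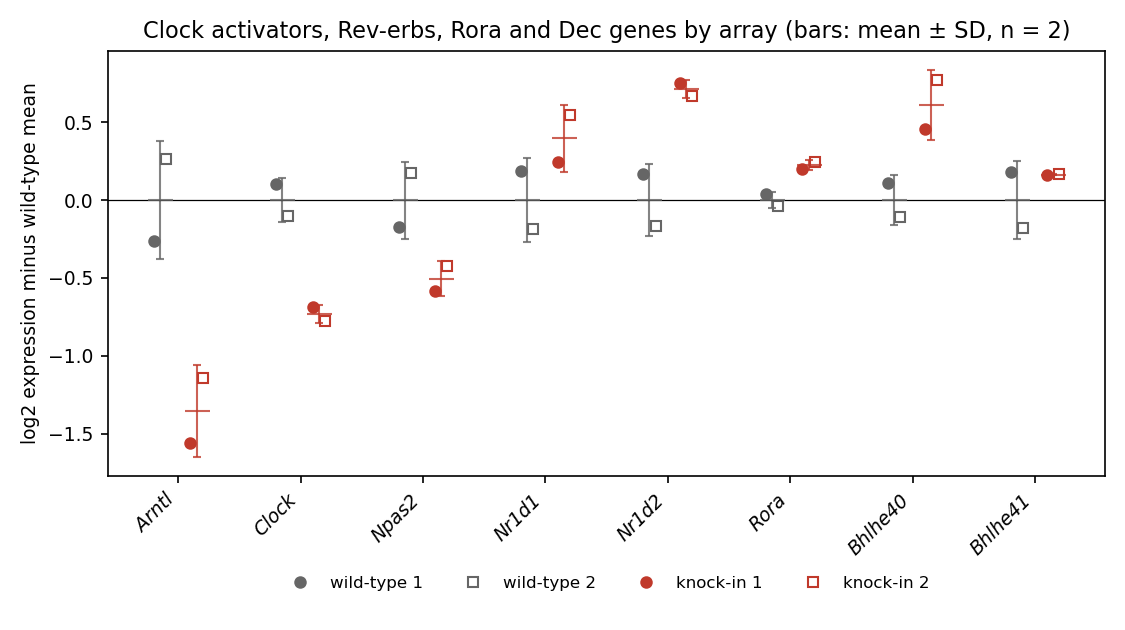
Log2 expression of the main probe set of each of the 8 genes on each array, minus the wild-type mean of that gene; grey symbols are wild-type and red symbols knock-in arrays, and bars give the mean ± SD of each group (n = 2). Both knock-in arrays of Arntl, Clock and Npas2 lie below their wild-type arrays, those of Nr1d1, Nr1d2, Rora and Bhlhe40 lie above, and Bhlhe41 overlaps.

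Arntl encodes BMAL1, the activator subunit without which the clock stops. It read 8.52 and 9.05 in wild-type 1 and 2 and 7.22 and 7.64 in knock-in 1 and 2. Every knock-in value was lower than every wild-type value, the single-array differences running from -1.83 to -0.88. Group means were 8.79 ± 0.38 and 7.43 ± 0.30 (log2, SD, n = 2), a difference of -1.35 ± 0.34 (SE), or 2.55-fold. The other Arntl probe set, 1457740_at, was dimmer and read 6.56, 6.73, 6.40 and 6.52 in the same order. It too was lower in both knock-in arrays, but by only -0.19 ± 0.10 (SE). Averaging both probe sets gave -0.77.

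Clock encodes the DNA-binding partner of BMAL1. Its main probe set, 1418660_at, read 8.69 and 8.49 in wild-type and 7.90 and 7.82 in knock-in hearts. The groups did not overlap, and the difference was -0.73 ± 0.11 (SE), or 1.66-fold. Of the 4 Clock probe sets, 3 were lower in both knock-in arrays. Probe set 1435775_at differed by -0.76 ± 0.07 (SE) and the dim 1439314_at by -0.41 ± 0.14 (SE). The exception was 1418659_at, annotated with the same transcript record as the main probe set, which read 7.98 and 8.52 in wild-type and 8.02 and 8.26 in knock-in hearts. Its groups overlapped, and its difference was -0.11 ± 0.30 (SE), so the Clock value depends on which probe set is read.

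Npas2 can replace CLOCK as the partner of BMAL1. It read 5.77 and 6.12 in wild-type and 5.36 and 5.52 in knock-in hearts, a difference of -0.50 ± 0.19 (SE), or 1.42-fold. Its other probe set, 1421036_at, read 5.47 and 5.33 in wild-type and 5.13 and 5.07 in knock-in hearts, a difference of -0.30 ± 0.08 (SE). Both probe sets separated the groups in the same direction. Both were dim, however, as the median over all genes was 7.11, and the deposited values carry no detection call.

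Nr1d2, encoding REV-ERB beta, had the highest difference among the 8 genes. It read 10.77 and 10.44 in wild-type and 11.36 and 11.28 in knock-in hearts. No values overlapped, and the difference was 0.71 ± 0.17 (SE), or 1.64-fold. A dimmer probe set, 1416959_at, read 6.34 and 6.24 in wild-type but 5.69 and 7.34 in knock-in hearts, the former below and the latter above both controls, and differed by 0.22 ± 0.83 (SE). Averaging the probe sets gave 0.47.

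Nr1d1, encoding REV-ERB alpha, was read by a single probe set. Its values were 10.14 and 9.77 in wild-type and 10.20 and 10.50 in knock-in hearts. Knock-in 1 exceeded wild-type 1 by only 0.05, whereas knock-in 2 exceeded wild-type 2 by 0.74. The difference was 0.40 ± 0.24 (SE), or 1.32-fold, 0.21 without wild-type 2 and 0.58 without wild-type 1. Nr1d1 overlaps the thyroid hormone receptor gene Thra by 1075 bases in the RefSeq gene table. Thra differed in the other direction, by -0.19 ± 0.15 (SE), with its arrays overlapping between groups.

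Rora encodes the activating receptor that competes with the REV-ERBs for their element. The main probe set read 9.14 and 9.07 in wild-type and 9.31 and 9.35 in knock-in hearts, a difference of 0.22 ± 0.04 (SE), or 1.17-fold. Its 9 probe sets did not move as a group, with differences from -0.13 to 0.36. Both knock-in arrays lay above both wild-type arrays in 2 probe sets and below them in 1, while 6 overlapped. Averaged over all 9, Rora differed by 0.07. The probe set 1436325_at, at 7.56 and 7.74 in wild-type and 8.01 and 8.0 in knock-in hearts, gave 0.36 ± 0.09 (SE), yet 1436326_at, annotated with the same transcript record, gave -0.00982 ± 0.12 (SE).

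Bhlhe40 and Bhlhe41, paralogous E-box repressors, differed in their values. Bhlhe40, which many stress and metabolic signals also induce, read 9.73 and 9.50 in wild-type and 10.07 and 10.38 in knock-in hearts. Its groups were apart, with a difference of 0.61 ± 0.19 (SE), or 1.53-fold. Bhlhe41 was dim and read 5.97 and 5.62 in wild-type and 5.96 and 5.96 in knock-in hearts. Its difference of 0.16 ± 0.18 (SE) came from wild-type 2 and was -0.0148 without it. The remaining Bhlhe41 probe set differed by -0.03 ± 0.06 (SE). Whether the paralogs differ from each other was not tested.

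**Figure D2:**
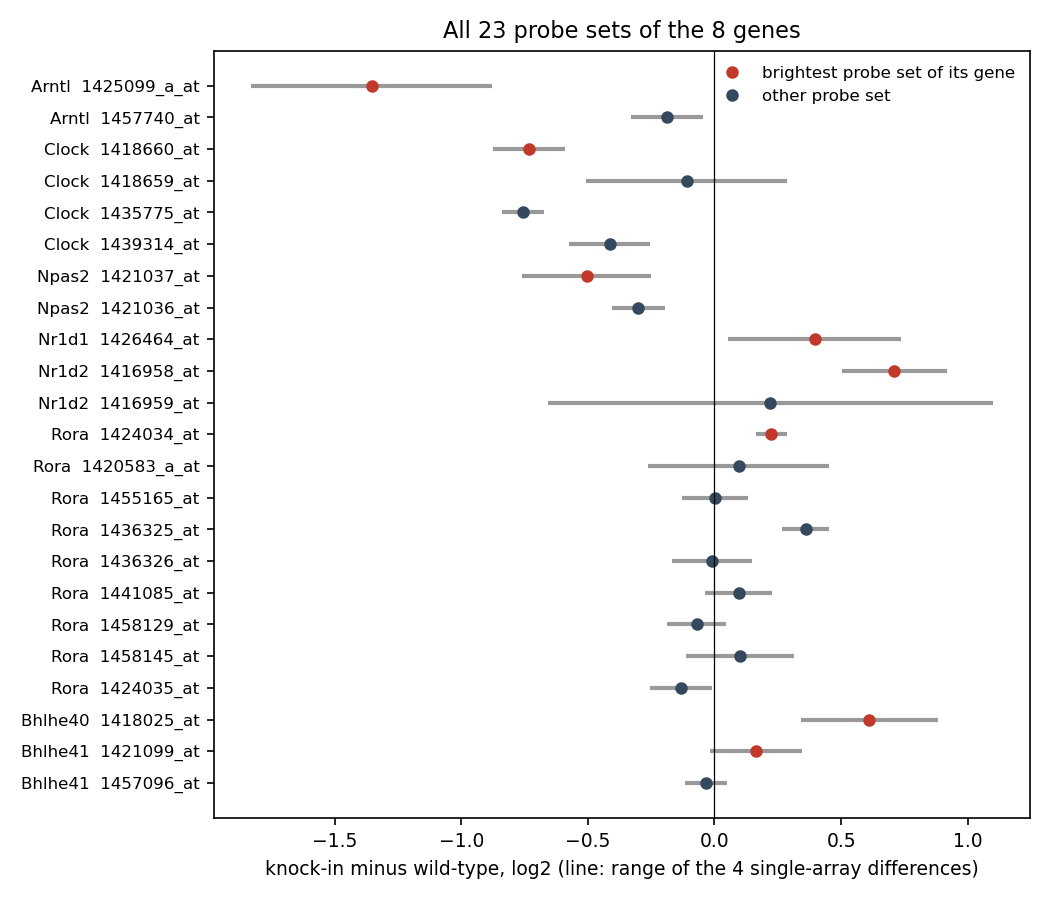
Knock-in minus wild-type log2 difference of group means for each of the 23 probe sets of the 8 genes (points; red for the brightest probe set of a gene), with a line from the lowest to the highest of the 4 single-array differences. All lines of Arntl and Npas2 and 3 of 4 of Clock lie below 0, those of Nr1d1, Bhlhe40 and the brighter Nr1d2 probe set above 0, and 6 of the 9 of Rora cross it.

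Counted over probe sets, 13 of the 23 had their groups apart, 8 lower and 5 higher, and 10 overlapped. Over the 34945 probe sets with a single gene symbol, 34.4% were apart in either direction. The 8 that were lower all belonged to the activators, save 1 dim Rora probe set (1424035_at, 4.48 and 4.38 against 4.23 and 4.37). The 5 that were higher belonged to Nr1d1, Nr1d2, Bhlhe40 and Rora.

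The difference between the arrays of a single genotype was not used in choosing the genes, and it compares 1 array with 1 array, without a replicate check. Among wild-type hearts, Arntl was higher in wild-type 2 by 0.53 and Npas2 by 0.35. In the same array Nr1d1 was lower by -0.38, Bhlhe41 by -0.36, Nr1d2 by -0.33 and Bhlhe40 by -0.22. Rora differed by -0.08 in its main probe set but by 0.08 with its probe sets averaged. Clock differed by -0.20 in its main probe set alone. Its other probe sets were higher in wild-type 2, 1418659_at by 0.55, 1439314_at by 0.28 and 1435775_at by 0.15. Npas2 differed by -0.15 in its dimmer probe set. Past 1.2-fold, a size picked after the values were seen, were 5 of the 8 genes in the wild-type pair, compared with 20.5% of all genes.

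In the knock-in pair 3 of the 8 genes were past 1.2-fold, compared with 14.0% of all genes. Arntl was higher in knock-in 2 by 0.42, Bhlhe40 by 0.32 and Nr1d1 by 0.30. Here Arntl and Nr1d1 differed in the same direction, whereas in the wild-type pair they differed in opposite directions. In their main probe sets Nr1d2 (-0.08), Clock (-0.09), Rora (0.04) and Bhlhe41 (0.00557) differed less. Other probe sets of these genes gave wider gaps, 1.65 for Nr1d2 in 1416959_at, 0.68 for Rora in 1420583_a_at and 0.25 for Clock in 1418659_at. The median absolute difference of the 8 genes was 0.34 in the wild-type pair and 0.12 in the knock-in pair, where all genes gave 0.13 and 0.11.

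**Figure D3:**
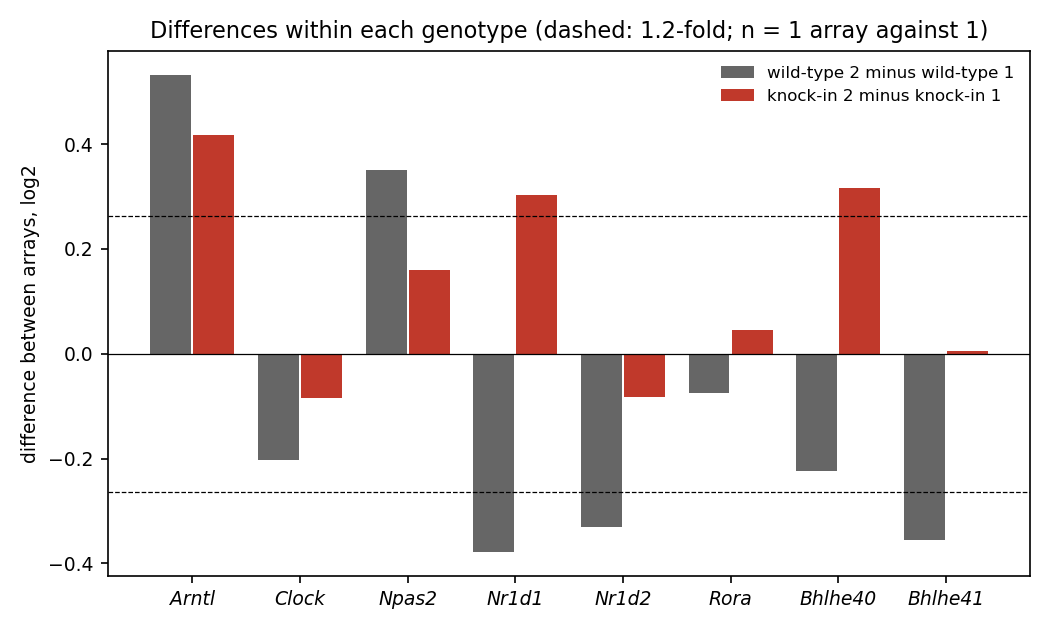
Log2 difference between the 2 arrays of each genotype for the main probe set of the 8 genes; grey bars are wild-type 2 minus wild-type 1, red bars knock-in 2 minus knock-in 1, and dashed lines mark 1.2-fold. In the wild-type pair Arntl (0.53) and Npas2 (0.35) point up while Nr1d1 (-0.38) and Nr1d2 (-0.33) point down; in the knock-in pair Arntl (0.42) and Nr1d1 (0.30) both point up.

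The rest of the clock was followed in 18 other clock genes. This list was drawn up with results of these arrays known. None of the 18 was called by limma over all genes, and 9 had an unadjusted limma p under 0.05, all 9 higher in knock-in hearts, where 7.39% of all genes (800 higher and 544 lower) had such a p. When limma was given an intensity trend and a robust prior, 4 were called (Ciart, Dbp, Per3 and Tef), and with averaged probe sets 4 (Ciart, Dbp, Hlf and Per2). Differences of the 18 genes had a median of 0.32. In 10 genes both knock-in arrays were above both wild-type arrays, in 1 (the clock kinase gene Csnk1d, -0.20) both were below, and 7 overlapped. Over all genes the shares were 19.6% above and 17.0% below. Because the list was made with results known, nothing is read from these counts.

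Among genes that BMAL1 activates through E-boxes, Dbp, a transcription factor of clock output, read 9.42 and 8.79 in wild-type and 11.52 and 11.33 in knock-in hearts. That is a difference of 2.31 ± 0.33 (SE), with an adjusted limma p of 0.0724. Ciart, a repressor of BMAL1 and CLOCK, read 6.66 and 6.42 against 8.36 and 8.15, a difference of 1.72 ± 0.16 (SE), with the same adjusted limma p of 0.0724. The period genes Per3 and Per2 differed by 1.82 and 1.03, while Per1 overlapped between groups (0.15). Per3 differed by 0.80 with its probe sets averaged and by -0.11 with the probe set listed first. The output factors Tef and Hlf differed by 1.09 and 0.84, and the deubiquitinase gene Usp2 by 0.71. Tef differed by 0.38 with its probe sets averaged, and Per2 by 1.68 with the probe set listed first.

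Other genes related to this loop had smaller differences or dim values. Nfil3, a repressor in phase with Arntl, read 7.04 and 7.46 in wild-type and 6.85 and 7.05 in knock-in hearts, with overlapping values and a difference of -0.30 ± 0.23 (SE). Cry1, a repressor with both E-box and ROR elements, was dim and higher in knock-in hearts, at 4.36 and 4.93 against 5.11 and 5.14, a difference of 0.48. Leaving out wild-type 1 gave 0.19 and leaving out wild-type 2 gave 0.77. Its paralog Cry2 was brighter, at 8.59 and 8.50 against 9.05 and 8.95. The Cry2 groups were apart, with a difference of 0.45 ± 0.07 (SE). Arntl2, the Arntl paralog, and Rorb, a paralog of Rora, differed by -0.05 and -0.06 with overlapping values.

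**Figure D4:**
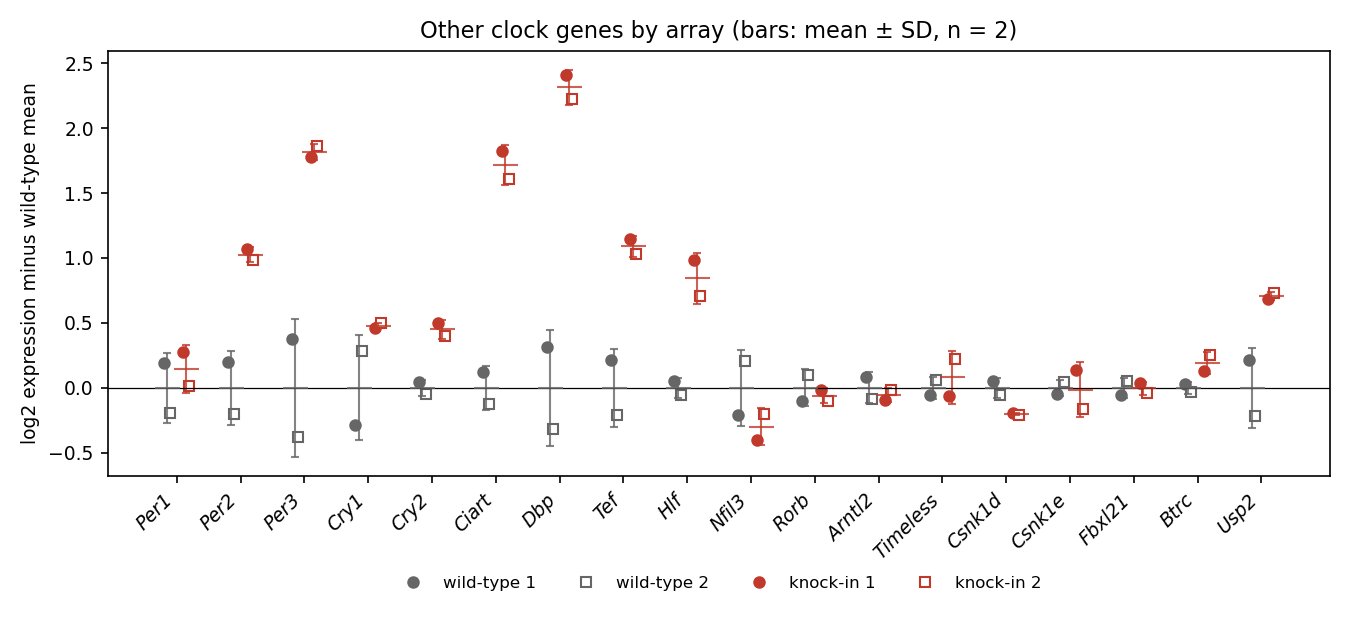
Log2 expression of 18 other clock genes on each array, minus the wild-type mean of that gene (1 probe set per gene, that with the highest mean); grey symbols are wild-type, red symbols knock-in, bars mean ± SD (n = 2). Dbp (2.31), Per3 (1.82) and Ciart (1.72) have the widest gaps, and Per1 (0.15) and Nfil3 (-0.30) overlap between groups.

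Profiles over the 4 arrays were compared by the root mean square difference of gene-centred log2 values, among 9090 genes brighter than the median. Closest to Arntl were Timp1 (0.16), Angptl4 (0.18), 2210407C18Rik (0.22) and Ddit4 (0.23). They are, in order, a metalloproteinase inhibitor, a lipoprotein lipase inhibitor, an uncharacterised gene and an mTORC1 inhibitor. Their knock-in minus wild-type differences were -1.22, -1.07, -1.50 and -1.34, against -1.35 for Arntl. In knock-in 1 and 2, 2210407C18Rik read 7.47 and 7.37 and Ddit4 9.99 and 9.84. Both were thus lower in knock-in 2, where Arntl was higher by 0.42. Closest to Nr1d2 were Usp2 (0.06), the phosphodiesterase gene Pde1c (0.07), the glycolytic regulator Pfkfb2 (0.07) and the ciliary gene Ift57 (0.09). When the Arntl profile was turned in sign, the nearest were Tef (0.17), Per2 (0.21), Ciart (0.22) and Hlf (0.30). All 4 are among the 18 other clock genes, a list drawn up with results of these arrays known. The profiles hold the knock-in minus wild-type contrast on which the 8 genes were chosen, so closeness in part restates that contrast. The brightness filter used the mean of all 4 arrays and so holds the contrast too. Wild-type values of Per2 (6.81 and 6.40) and Ciart (6.66 and 6.42) were below the median of 7.11. Both genes passed the filter through their knock-in arrays. Timp1, at 6.69 and 6.90 in knock-in hearts, passed through its wild-type arrays. With 4 arrays these distances are a description.

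The tissue label was checked on markers. All 10 cardiomyocyte markers were bright, the lowest value being 12.95, with a median difference of 0.05. All 10 were also higher in knock-in hearts, and 7 were apart upward, against 19.6% of all genes. Liver markers were higher in knock-in hearts in 12 of 12 genes, with 11 apart upward, against 19.6% of all genes. Of these 12 markers, 7 were dimmer than the median over all genes. Their summed signal on the linear scale was 1140 and 817 in wild-type and 2042 and 3337 in knock-in arrays, and Alb, encoding albumin, read 7.01, 5.54, 8.58 and 9.66. Of 5 measured adipocyte markers 4 were higher and 2 apart upward, against the same 19.6% of all genes, with a median difference of 0.03. All 5 were dimmer than the median over all genes. The summed adipocyte signal was 282 and 260 in wild-type and 518 and 571 in knock-in arrays. RMA values have no 0, so absence of a marker cannot be read. Liver and fat also express clock genes, and the part of these transcripts in the differences of the 8 genes was not tested. In tissue RNA, fewer cells of a type and less RNA per cell cannot be told apart. Gsk3b differed by 0.18 and Gsk3a by 0.04, and neither can show an amino acid change.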

How the data were processed

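Per the labels, total RNA of 4 mouse heart samples was labelled as biotinylated cRNA and hybridised to 1 array each. The deposited log2 values per probe set were made by the authors with RMA in Affymetrix Expression Console, per the submitters' processing notes (version not given in the sources used here). Per the labels, the wild-type arrays were normalized here with the knock-in arrays alone. Array medians lay between 5.97 and 6.04. Of 45101 probe sets, 34945 had 1 gene symbol, 932 several and 9160 none, and 64 were controls. Symbols were updated by Entrez identifier (34741 matched the RefSeq table of GRCm38.p6). The probe set with the highest mean stood for each of 18193 genes, with no filter on dim values.

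All genes were fitted with limma 3.58.1 in R 4.3.3 (lmFit, eBayes, two-sided, Benjamini-Hochberg adjustment, threshold 0.05), after a check on simulated data. With 2 arrays a group, the smallest p of an exact permutation test is 0.333. The SE of a difference was computed from the SDs of both groups. The genes named are the 8 chosen, 18 other clock genes, the 4 nearest profiles for Arntl, for Nr1d2 and for the sign-turned Arntl, and marker lists for cardiomyocytes, liver, adipocytes, erythrocytes, skeletal muscle, endothelium and fibroblasts. Genes and lists were chosen with earlier results of these data known. The erythrocyte, skeletal muscle, endothelium and fibroblast lists had median differences of 0.05, 0.04, -0.12 and 0.03. The titles do not say that replicate numbers pair samples, so the replicate block was an alternative only. Same-numbered arrays did not deviate together (Pearson's r of -0.03 across genes, which are not independent replicates).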

Additional observations from a re-analysis of the deposited data

How the results depend on the processing

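None of the 8 genes was called in the alternative limma fits, 11 in all, except that Npas2 and Bhlhe41 were not in the fit of genes above the median. Over all genes, where 1 gene was called, 22 were called with an intensity trend and robust prior, 11 after quantile normalization, 11 with averaged probe sets, 7 among genes above the median, 0 with the first-listed probe set, 0 with the replicate number as a block (replicate block) and 0 without any 1 array (between 677 and 1966 at an unadjusted limma p under 0.05). Of the 18 other clock genes, 4 were called with the trend and robust prior, 4 with averaged probe sets, 2 after quantile normalization and 2 among genes above the median. Differences of the 8 genes kept their sign, apart from Bhlhe41, which ran from -0.0148 to 0.34 over the fits that left out 1 array. Over the alternatives that held each gene, Arntl ran from -1.62 to -0.77, Clock from -0.83 to -0.11, Npas2 from -0.68 to -0.30, Nr1d1 from 0.21 to 0.58, Nr1d2 from 0.47 to 0.88, Rora from 0.07 to 0.26 and Bhlhe40 from 0.45 to 0.77. The AGGTCA core by itself was in 3 of the 7 genes and the looser E-box CANNTG in 4 of 7. Counted by window, that looser E-box was in 4 of the 10 windows of these genes and in 72.3% of all windows. Precision is limited by the number of arrays.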
